A study of Canis lupus familiaris with 30 samples.

Results

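ABCB1, ABCC1, ABCC4, ABCC5 and CYP3A12 are the drug efflux pumps and the drug-metabolising cytochrome examined here in the circulating mononuclear cells of dogs on a kibble or a raw meat diet. They were chosen by name, with earlier results of these data known, as all non-control probes whose RefSeq transcript belongs to one of these genes. That gave 8 probes of 43603, printed as 12 spots, and 6 of the 8 passed the filter on dim probes. One probe per gene, the brightest, represents it among the 25950 genes and unnamed transcripts tested. The cells were peripheral blood mononuclear cells (PBMC), the lymphocytes, monocytes and other light cells that density centrifugation recovers from blood. Per the labels, 8 adult dogs ate only a kibble containing carbohydrate and 7 ate only raw red meat, high in fat and protein, for 9 weeks, with samples at week 0 and every 3 weeks. RNA of 2 groups at a time was labelled with Cy3 or Cy5 and hybridised to an Agilent array. Of 30 such arrays, 14 paired the diets (3 arrays each for weeks 0 and 3, 4 each for weeks 6 and 9), and 16 paired week 9 with week 0 or week 6 with week 3 in dogs of 1 diet, 4 of each kind.

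ATP-binding cassette transporters hydrolyse ATP to move substrates across membranes. ABCB1 encodes P-glycoprotein, the multidrug efflux pump that expels many hydrophobic drugs, such as ivermectin and several cytotoxic agents, and lymphocytes carry it as well as gut, liver and the blood-brain barrier. ABCC1, ABCC4 and ABCC5 encode multidrug resistance-associated proteins of another subfamily: ABCC1 exports glutathione conjugates and leukotrienes, while ABCC4 and ABCC5 are known for exporting cyclic nucleotides and nucleotide analogues. CYP3A12 is a dog cytochrome P450 of the CYP3A subfamily, whose members oxidise many drugs and are best known from liver and intestine. P-glycoprotein and CYP3A enzymes share many substrates.

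The labels state 6 biological replicates, while each group of diet and week was read in 7 or 8 channels. The labels do not say whose RNA an array holds, so p-values measure the spread between arrays, which may be technical in part, and not between dogs. Each week's diet arrays had a separate slide, where week and slide cannot be told apart. A pair of arrays stood apart: on kibble week 0 against kibble week 9, replicate 1, the fewest probes were well above background (20085 in Cy3 and 19416 in Cy5), and on meat week 9 against meat week 0, replicate 1, nearly all were (42703 and 43411). Results below are given with these arrays, and without them where that changes what is said. In whole PBMC, fewer cells of a type and less RNA per cell cannot be told apart.

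Detection differed between the probes. The ABCC1 probe (NM_001002971) and the ABCC4 probe (NM_001197174) stood well above background in 60 of 60 channels. The reported ABCB1 probe (NM_001003215) did so in 59, the CYP3A12 probe (NM_001003340) in 58 and the brightest ABCC5 probe (NM_001128100), printed as 5 spots, in 49. The channels missing for ABCB1 and CYP3A12 all belonged to the array with the fewest bright probes. A second ABCB1 probe to the same transcript was above background in 29 channels, and the other ABCC5 probes in 5 and 2. Both channels of the last probe were those of the array on which nearly every probe was bright, so without the arrays that stood apart it was detected in 0 of 56 channels and the other in 3. ABCC5 is therefore read through 1 probe here, and its low signal, a median of 2.79 times the local background against 15.0 for ABCC1, limits what its ratios can show. The 5 spots of the ABCC5 probe had SDs of 0.03 to 0.15 on the log2 scale within an array.

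The question the design puts to these genes is whether feeding meat or kibble went with a different transcript level. ABCB1 was higher in the meat-fed dogs at week 9, and over the mean of weeks 3, 6 and 9, while ABCC1, ABCC4 and ABCC5 did not pass the test in any diet comparison. CYP3A12 passed at week 3, with most of the difference on 1 array. At the start of the experiment ABCB1 read in the same direction, short of the threshold, at 0.35 ± 0.11 (SE) on the log2 scale. The mean of weeks 3, 6 and 9 that passed was no larger, at 0.27 ± 0.06, and was not tested against week 0. Of the 5 members, CYP3A12 alone passed in week 3, ABCB1 alone in week 9 and in the mean, and 0 passed in weeks 0 and 6, by limma with Benjamini-Hochberg adjustment over all units and a threshold of 0.05. Of all units the same test called 0.312% (week 0), 6.07% (week 3), 6.23% (week 6), 0.593% (week 9) and 14.9% (mean). At an unadjusted p under 0.05, ABCB1 passed in weeks 0, 3 and 9 and in the mean, CYP3A12 in week 3 and in the mean, and 0 members in week 6. The share of all units at that level was 8.89% (week 0), 21.9% (week 3), 19.4% (week 6), 10.5% (week 9) and 26.1% (mean).

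**Figure D1:**
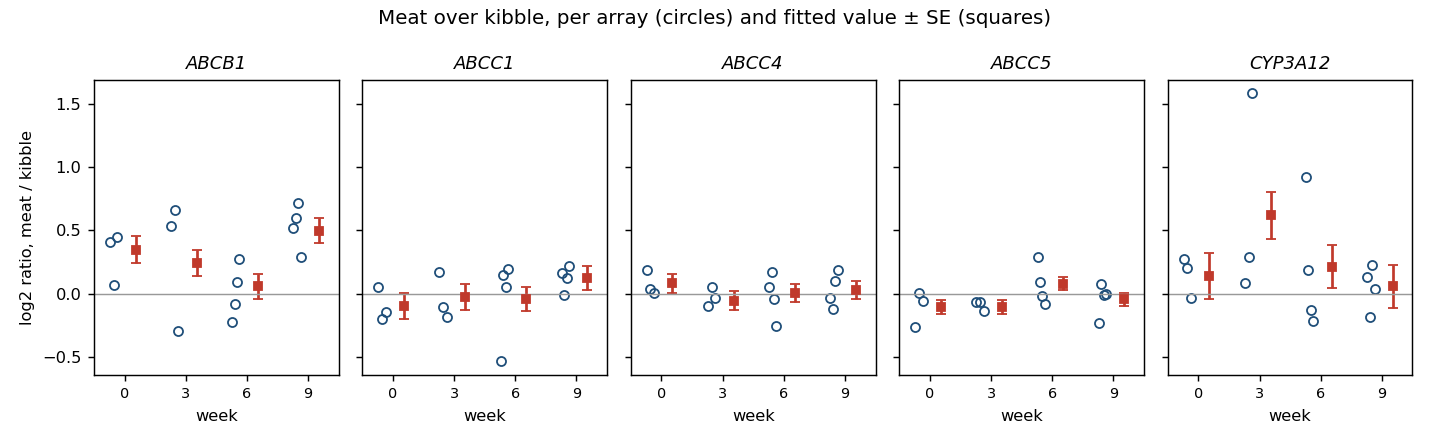
Log2 ratio of meat over kibble for the 5 genes at weeks 0, 3, 6 and 9. Circles are single arrays with the gene's dye effect removed (3 arrays at weeks 0 and 3, 4 at weeks 6 and 9) and squares the fitted value ± SE. All 4 ABCB1 arrays of week 9 lie above 0, between 0.29 and 0.72, and 1 CYP3A12 array of week 3 lies at 1.58.

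ABCB1 was compared first. At week 9 the arrays gave meat over kibble log2 ratios of 0.29, 0.52, 0.59 and 0.72 with the gene's dye effect removed, so every array had more ABCB1 signal in the meat sample. The fitted difference was 0.50 ± 0.10 (SE), a fold of 1.41, with an adjusted p of 0.0148 by limma, higher in 4 of 4 arrays. The call was lost without meat against kibble replicate 1 (0.45, adjusted p 0.0821) and without kibble against meat replicate 1 (0.49, adjusted p 0.0555) or 2 (0.47, adjusted p 0.120). In size it stood at percentile 98.9 of all units in that comparison. The second ABCB1 probe was well above background in 4 of 7 meat channels and 0 of 7 kibble channels at week 0. These counts were 5 of 7 and 1 of 7 at week 3, and 4 of 8 and 3 of 8 at week 6. At week 9 they were 8 of 8 and 4 of 8. The 4 meat channels of week 0 were all Cy5 channels of arrays against meat week 9, including the array with nearly all probes bright. On the week 0 diet arrays no channel of either diet was above background by this probe. It was above background in 11 Cy3 and 18 Cy5 channels. The groups differ in dye make-up, so these counts do not compare the diets evenly. The difference by this probe at week 9 was 0.16 ± 0.07 (adjusted p 0.335 by limma over all probes), also higher in 4 of 4 arrays but smaller. Over the 30 arrays the log ratios of these probes had a Pearson r of 0.64, a description of probes that share arrays and samples.

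At week 0 the arrays read 0.07, 0.41 and 0.45 for ABCB1, all above 0. The fitted difference was 0.35 ± 0.11 (SE), a fold of 1.27, and did not pass (adjusted p 0.195 by limma). In size it stood at percentile 97.2 of all units at week 0. The change of the diet difference from week 0 to week 9, which is the test of whether the diet gap itself widened, was 0.15 ± 0.12, with a 95% interval of -0.10 to 0.40 and an adjusted p of 0.786 by limma. By the second ABCB1 probe the week 0 difference was 0.17 ± 0.07 (adjusted p 0.449 by limma over all probes), above 0 in 3 of 3 arrays. The change of its diet difference from week 0 to week 9 was -0.003 ± 0.08 (adjusted p 0.995 by limma over all probes). The week 9 difference was thus not shown to differ from the week 0 difference by either probe. No unit of the 25950 passed this interaction by limma (0% called), while 2041 units and 0 of the 5 members had an unadjusted p under 0.05.

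The fitted ABCB1 gap was smaller at weeks 3 and 6 than at week 9, but was not shown to change. From week 3 to week 6 it changed by -0.18 ± 0.12 (adjusted p 0.660 by limma). By the second probe the change was -0.26 ± 0.08 (adjusted p 0.522 by limma over all probes). Weeks 3 and 6 were not tested against week 9. At week 3 the arrays read -0.30, 0.53 and 0.66, 2 above 0 and 1 below it, for a fitted 0.24 ± 0.11 (adjusted p 0.173 by limma). The array below 0 was meat week 3 against kibble week 3, replicate 2. Without it the fitted value was 0.44 ± 0.10 and passed (adjusted p 0.0397 by limma), while leaving out meat against kibble replicate 1 gave 0.09 (adjusted p 0.741) and leaving out kibble against meat replicate 1 gave 0.16 (adjusted p 0.472). At week 6 the arrays fell on both sides of 0, at -0.22, -0.08, 0.09 and 0.27, and the fitted difference was 0.06 ± 0.10, with a 95% interval of -0.14 to 0.26. The second ABCB1 probe gave 0.22 ± 0.07 at week 3 and -0.05 ± 0.07 at week 6. In the mean of weeks 3, 6 and 9 the ABCB1 difference was 0.27 ± 0.06, a fold of 1.20 (adjusted p 0.00559 by limma), higher in 8 of 11 arrays. It was 0.11 ± 0.04 by the second probe (adjusted p 0.0880).

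**Figure D2:**
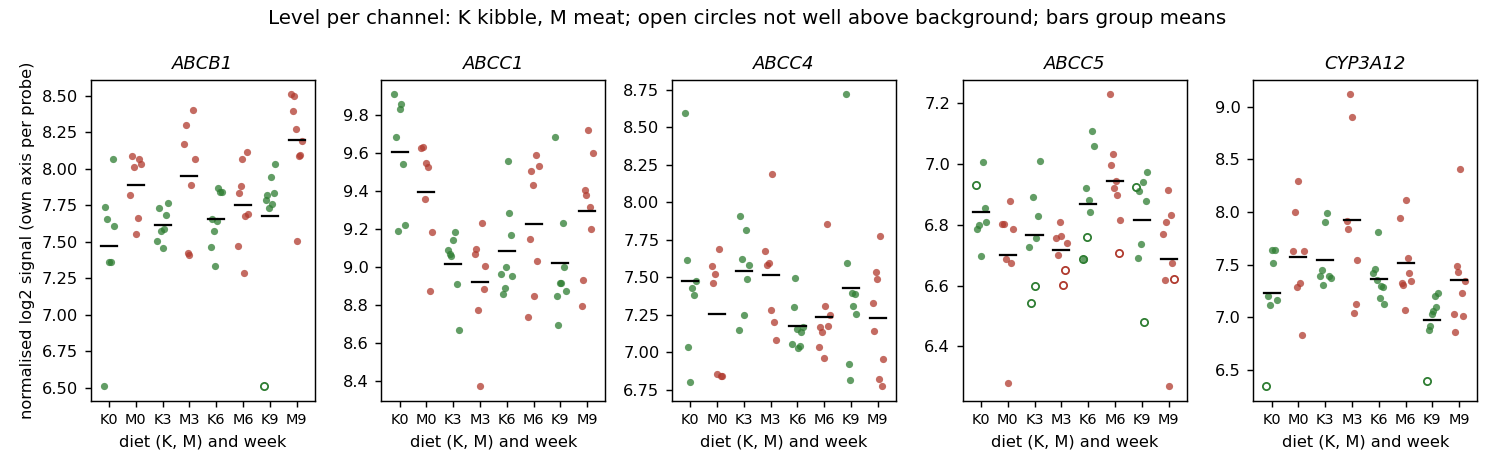
Normalised log2 signal of the reported probe of each gene in every channel, by diet (K kibble, M meat) and week, with 7 or 8 channels per group. Filled circles are well above background, open circles are not, bars are group means, and each probe has its own axis. The 8 ABCB1 channels of meat at week 9 run from 7.50 to 8.51 and the 8 of kibble from 6.51 to 8.03. The kibble channels near 6.51 come from the array with the fewest bright probes.

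Levels per channel show the same order for ABCB1. On the normalised log2 scale the lowest, median and highest ABCB1 levels were 7.50, 8.23 and 8.51 in the 8 meat channels of week 9 and 6.51, 7.80 and 8.03 in the 8 kibble channels. Leaving out the arrays that stood apart was chosen after seeing the data. Without them the 7 meat channels ran from 8.08 to 8.51 and the 7 kibble channels from 7.73 to 8.03. At week 0 the 7 meat channels ranged from 7.55 to 8.09 with a median of 8.01 and the 7 kibble channels from 6.51 to 8.07 with a median of 7.61, and the groups overlapped. Mean ABCB1 levels over all channels ran from meat week 9 (8.19 ± 0.33, SD, n = 8) through meat week 3 (7.95 ± 0.40, n = 7), meat week 0 (7.89 ± 0.22, n = 7) and meat week 6 (7.75 ± 0.28, n = 8) to the kibble groups. Kibble week 9 (7.67 ± 0.48, n = 8), week 6 (7.65 ± 0.19, n = 8), week 3 (7.61 ± 0.12, n = 7) and week 0 (7.47 ± 0.49, n = 7) followed. All 4 meat groups thus stood above all 4 kibble groups, but each neighbouring pair differed by less than the larger SD of the pair. Weeks 0 and 9 were not hybridised with weeks 3 and 6, so this order sets levels from other arrays side by side and is not tested. Levels also keep the gene's dye effect (0.05 for ABCB1 in the fit), and the groups differ in dye make-up. Without the arrays that stood apart, kibble week 9 (7.84 ± 0.11, n = 7) passed meat week 6 in this order.

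ABCC1, the exporter of glutathione conjugates, gave a different pattern. Its diet differences were -0.10 ± 0.10 (week 0), -0.03 ± 0.10 (week 3), -0.04 ± 0.10 (week 6), 0.12 ± 0.10 (week 9) and 0.02 ± 0.06 (mean), none of them past the test. The week 9 arrays read -0.01, 0.12, 0.17 and 0.22, 3 of 4 above 0, and the 95% interval of -0.07 to 0.32 includes 0. At week 6 array kibble against meat, replicate 1, stood at -0.53 while the others lay between 0.05 and 0.19. ABCC1 was the pump with the largest dye effect: the Cy5 over Cy3 log2 ratio was shifted by -0.29 in the fit, which is why array values are given with it removed.

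ABCC4, which exports cyclic nucleotides, passed no diet comparison. The fitted values were 0.08 ± 0.08 (week 0), -0.05 ± 0.08 (week 3), 0.00 ± 0.07 (week 6) and 0.03 ± 0.07 (week 9). In the mean of weeks 3, 6 and 9 the value was -0.01 ± 0.05, with a 95% interval of -0.10 to 0.09. The 4 arrays of week 9 lay at -0.12, -0.03, 0.10 and 0.19, on both sides of 0. ABCC4 levels were widely spread within groups, with SDs of 0.16 to 0.58. On the array with the fewest bright probes its channels read 8.59 (kibble week 0) and 8.72 (kibble week 9), where the other channels of those groups reached at most 7.62 and 7.60. Both channels of that array were high alike, and the ratio between them was 0.17.

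ABCC5, the other cyclic nucleotide exporter, also passed no diet comparison. Its fitted values were -0.10 ± 0.06 (week 0), -0.10 ± 0.06 (week 3), 0.08 ± 0.05 (week 6) and -0.04 ± 0.05 (week 9). The 3 arrays of week 3 were -0.14, -0.07 and -0.06, all below 0, whereas those of week 6 ran from -0.08 to 0.29. In the mean the value was -0.02 ± 0.03.

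The contrast between ABCB1 and the ABCC pumps was taken within arrays, as the ABCB1 diet ratio minus that of each ABCC pump, which removes what an array does to all pumps alike. At week 9 ABCB1 exceeded ABCC1 by 0.37 ± 0.13, ABCC4 by 0.47 ± 0.12 and ABCC5 by 0.54 ± 0.11 on the log2 scale, with each difference above 0 in 4 of 4 arrays. At week 0 these differences were 0.44 ± 0.14, 0.27 ± 0.13 and 0.45 ± 0.12, above 0 in 3 of 3 arrays. At week 3 they were 0.27 ± 0.14, 0.30 ± 0.13 and 0.34 ± 0.12, above 0 in 2 of 3 arrays. At week 6 they were 0.10 ± 0.13, 0.05 ± 0.12 and -0.02 ± 0.11. The change of the contrast from week 0 to week 9 was -0.07 ± 0.16 against ABCC1, 0.20 ± 0.15 against ABCC4 and 0.09 ± 0.14 against ABCC5, each with a 95% interval that includes 0. These differences are described without a p-value, since the pumps were picked with earlier results of these data known.

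**Figure D3:**
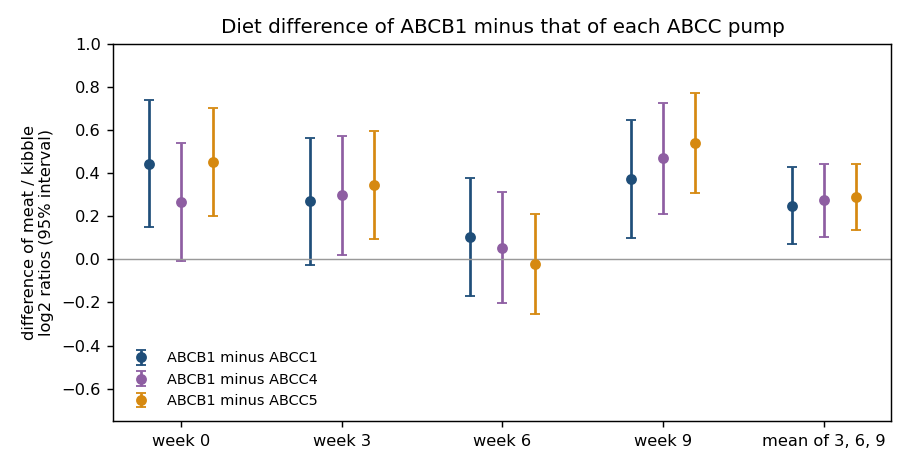
ABCB1 meat over kibble log2 ratio minus that of ABCC1, ABCC4 or ABCC5, fitted over all 30 arrays, with 95% intervals, at each week and in the mean of weeks 3, 6 and 9. The 3 contrasts lie at 0.37 to 0.54 at week 9, at 0.27 to 0.45 at week 0, at 0.27 to 0.34 at week 3 and at -0.02 to 0.10 at week 6.

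CYP3A12 was higher in the meat-fed dogs at week 3 by 0.62 ± 0.18 (SE), a fold of 1.54, with an adjusted p of 0.0438 by limma. The 3 arrays read 0.08, 0.29 and 1.58, all above 0 but far apart. The value of 1.58 came from meat week 3 against kibble week 3, replicate 2, the same array that put ABCB1 at -0.30. Without it CYP3A12 stood at 0.26 ± 0.18 (adjusted p 0.540 by limma). Slide as a fixed block ended the call too (0.51, adjusted p 0.276), and 11 of the 30 arrays ended it when left out singly. At week 6 one array read 0.92 and the others -0.22, -0.13 and 0.19, for a fitted 0.21 ± 0.17 (adjusted p 0.548). At week 9 the fitted difference was 0.06 ± 0.17, and in the mean of weeks 3, 6 and 9 it was 0.30 ± 0.11 (adjusted p 0.0760), higher in 8 of 11 arrays.

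The spread of CYP3A12 within meat week 3 was the widest of any member in any group. Its 7 channels lay at 7.04, 7.13, 7.55, 7.84, 7.92, 8.90 and 9.12 on the normalised log2 scale, against 7.31 to 7.99 in the 7 kibble channels of that week. The channels at 8.90 and 9.12 were on different arrays and in different dyes. The same channels had the lowest ABCB1 levels of the 7, 7.41 and 7.42, and the lowest ABCC1 levels, 8.37 and 8.77. At week 6 the highest CYP3A12 channels of the 8 in the meat group, 8.11 and 7.94, were again those with the lowest ABCB1, 7.29 and 7.47, and the lowest ABCC1, 8.85 and 8.74. Counted from the lowest, ABCC4 ranked 3 and 5 of 7 in those week 3 channels and 7 and 2 of 8 in those of week 6, and ABCC5 ranked 6 and 7 of 7 and 5 and 8 of 8. The meat week 6 channel at 8.11 and the meat week 3 channel at 8.90 share an array, and on it the ratio of week 6 over week 3 was -0.95 for CYP3A12. Whether these channels hold the same dog was not tested, as the labels tie no channel to a dog. The weeks and channels were picked out after the levels were seen. At week 9 the meat channel highest in CYP3A12, at 8.41, had the lowest ABCB1 of its group, 7.50, but the highest ABCC1, 9.72. Over the 30 arrays the log ratios of CYP3A12 had a Pearson r of -0.14 with those of ABCB1 and -0.15 with those of ABCC1.

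**Figure D4:**
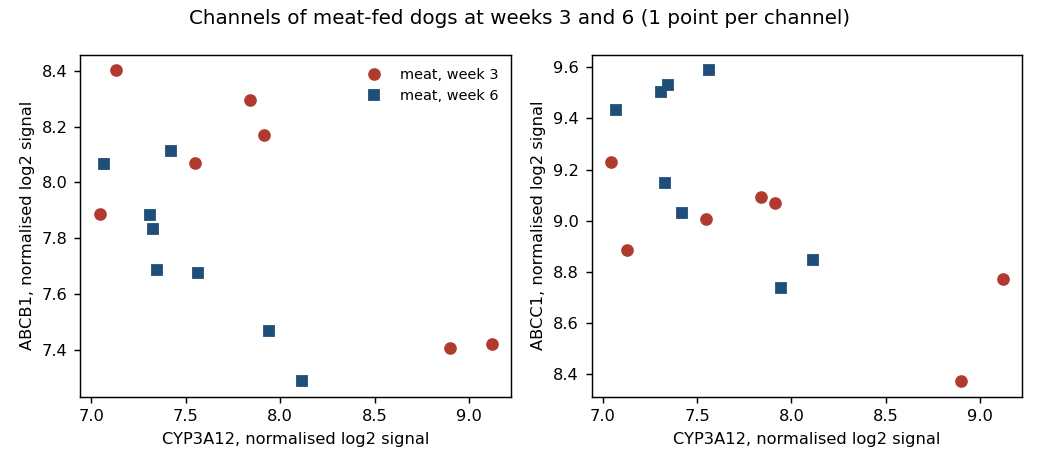
Normalised log2 signal of CYP3A12 against that of ABCB1 (left) and ABCC1 (right) in the 7 channels of meat at week 3 (circles) and the 8 of meat at week 6 (squares). The 2 channels with the highest CYP3A12 in each week are those with the lowest ABCB1 and ABCC1 of that week. These weeks were picked out after the levels were seen.

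Over all groups mean CYP3A12 levels ran from 7.93 ± 0.81 (SD, n = 7) in meat week 3 to 6.98 ± 0.26 (n = 8) in kibble week 9. The order between them was meat week 0, kibble week 3, meat week 6, kibble week 6, meat week 9 and kibble week 0, and every neighbouring pair differed by less than the larger SD of the pair. As for ABCB1, this order sets weeks 0 and 9 beside weeks 3 and 6 from other arrays. It also keeps the dye effect, -0.16 for CYP3A12 in the fit, in groups of unlike dye make-up. The array on which nearly all probes were bright gave CYP3A12 levels of 8.29 in meat week 0 and 8.41 in meat week 9, the highest of each group. Without the arrays that stood apart meat week 9 was 7.20 ± 0.24 (n = 7) and kibble week 9 was 7.06 ± 0.13 (n = 7).

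CYP3A12 is best known from liver, so transcripts that mark liver and gut were looked for in the same cells. Of 16 listed, only 3 had a probe with a symbol (FABP1, APOH and SERPINA1), so the rest could not be checked. FABP1, the liver fatty acid-binding protein, was above background in 2 channels by each of its probes, both on the array with nearly all probes bright, and APOH, a plasma apolipoprotein made by liver, in 4 and 6. CYP2E1, another hepatic cytochrome, was detected in 2 channels by each of 3 probes. Other genes known from liver were detected more widely by their brightest probes. The cytochromes CYP2D15, CYP2A13 and CYP1A2 stood above background in 60, 50 and 49 channels, the glucuronosyltransferase UGT2B31 in 59 and the uptake carrier SLCO1B3 in 35. Their second probes, where present, did so in 9 (CYP2A13), 2 (CYP1A2), 49 (UGT2B31) and 10 channels (SLCO1B3). SERPINA1, which monocytes also make, was detected in 60. CYP3A26, the other CYP3A gene matched to a probe here, was above background in 2 channels, and in 0 of 56 without the arrays that stood apart. Whether the CYP3A12 probe also binds other CYP3A transcripts was not tested.

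Between weeks within a diet the question is whether the genes moved while the dogs stayed on their food. All 4 arrays of each kind here carry the weeks in 1 dye order, with week 0 or 3 in Cy3 on kibble and in Cy5 on meat, so each change rests on the dye effect that the diet arrays help to estimate. Between week 0 and week 9, 1 of the 5 members passed on kibble (ABCC1, lower, where 13.6% of all units were called) and 0 of 5 on meat (8.01% called; at an unadjusted p under 0.05, ABCB1 alone and 21.2% of all units). Between weeks 3 and 6, 0 of 5 passed on kibble (0.0347% called; at an unadjusted p under 0.05, ABCC4 alone and 17.5% of all units) and 1 of 5 on meat (ABCC5, higher, where 2.24% were called).

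**Figure D5:**
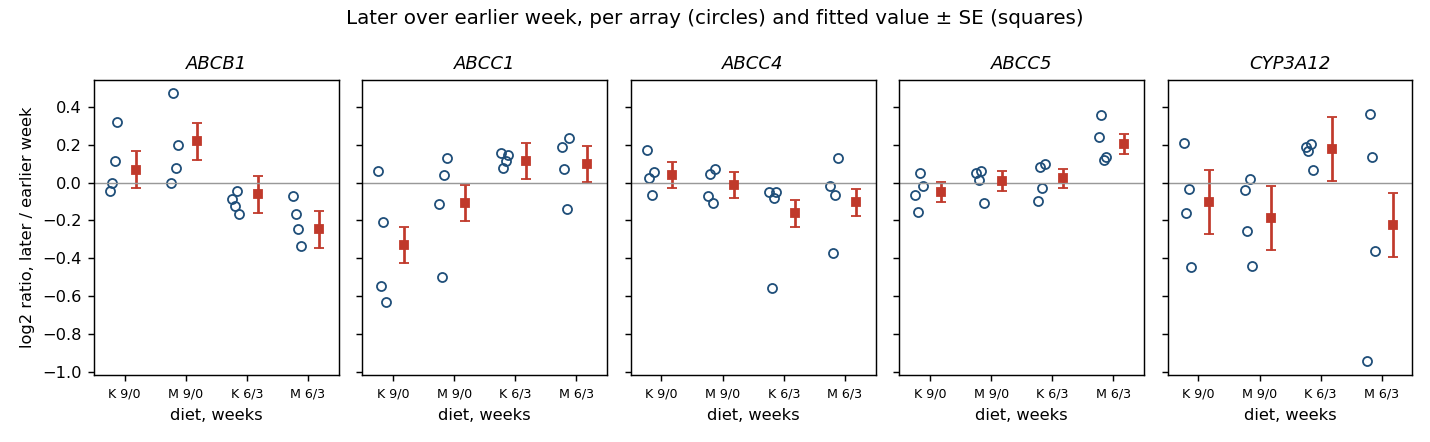
Log2 ratio of the later over the earlier week on kibble (K) and meat (M), for weeks 9 over 0 and 6 over 3. Circles are single arrays (4 of each kind) with the gene's dye effect removed and squares the fitted value ± SE. ABCC1 on kibble from week 0 to 9 and ABCC5 on meat from week 3 to 6 passed the test, and 1 of the CYP3A12 arrays on meat lies at -0.95.

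ABCC1 fell by 0.33 ± 0.10 (SE) on the log2 scale from week 0 to week 9 on kibble, a fold of 1.26, with an adjusted p of 0.0197 by limma. The 4 arrays read -0.63, -0.55, -0.21 and 0.06 with the dye effect removed, so 3 of 4 were lower. The array at 0.06 was the one with the fewest bright probes. Without both arrays that stood apart the change was -0.42 ± 0.10 (adjusted p 0.00534). The call was lost without replicate 2 (-0.28, adjusted p 0.0974) or replicate 4 (-0.26, adjusted p 0.109), and with the slide as a fixed block (-0.31, adjusted p 0.0768). On meat the change was -0.11 ± 0.10 (adjusted p 0.576), with arrays from -0.50 to 0.13. On the 4 arrays of each kind alone, where no dye term can be had, the change was -0.62 on kibble (adjusted p 0.0399) and 0.18 on meat (adjusted p 0.414). The difference between the diets in this change was 0.22 ± 0.12 (adjusted p 0.675 by limma), so the diets were not shown to differ in it. Mean ABCC1 levels were highest in kibble week 0 (9.60 ± 0.30, SD, n = 7) and meat week 0 (9.39 ± 0.28, n = 7), and lowest in meat week 3 (8.92 ± 0.28, n = 7). Weeks 0 and 9 were not hybridised with weeks 3 and 6, so levels of those weeks stand side by side from other arrays and are not tested. Unlike the array ratios, the levels also keep the dye effect, -0.29 for ABCC1, and the groups differ in how many channels are Cy5.

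ABCC5 rose by 0.20 ± 0.05 (SE) from week 3 to week 6 on meat, a fold of 1.15, with an adjusted p of 0.0350 by limma and arrays at 0.12, 0.14, 0.24 and 0.36, all above 0. The call was lost without any 1 of 7 arrays (adjusted p 0.0509 to 0.137) and with the slide as a fixed block (0.19, adjusted p 0.128). The value was 0.75 with the scanner software's processed signals (adjusted p 0.0692) and 0.15 on these 4 arrays alone, with no dye term (adjusted p 0.291). On kibble its change was 0.02 ± 0.05, and the difference between the diets was 0.18 ± 0.06, which did not pass (unadjusted p 0.00826, adjusted p 0.482 by limma). No unit passed that interaction by limma, with 2522 at an unadjusted p under 0.05, 1 of them a member. The ABCC5 probe was well above background in 5 of 7 meat channels at week 3 and 7 of 8 at week 6. Mean levels were 6.72 ± 0.07 (SD, n = 7) and 6.94 ± 0.15 (n = 8), and meat week 6 was the highest of the 8 groups. The other ABCC5 probes, at background in nearly all channels, give no check of this.

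ABCB1 on meat did not pass between weeks 3 and 6. Its 4 arrays read -0.33, -0.24, -0.16 and -0.07, all below 0, for a fitted -0.25 ± 0.10 (adjusted p 0.167 by limma), and the second probe was below 0 in 4 of 4 arrays too, at -0.17 ± 0.07. On kibble ABCB1 also read below 0 on 4 of 4 arrays, at -0.06 ± 0.10. From week 0 to week 9 ABCB1 changed by 0.22 ± 0.10 on meat (adjusted p 0.188; arrays 0.00, 0.08, 0.20 and 0.47) and by 0.07 ± 0.10 on kibble (adjusted p 0.730). ABCC4 from week 3 to 6 on kibble was -0.16 ± 0.07 (adjusted p 0.239), with 1 array at -0.56 and the others at -0.08 to -0.05. CYP3A12 passed in no comparison over time, and its arrays on meat from week 3 to 6 ran from -0.95 to 0.36.

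Other genes of drug handling were counted from lists. Of 36 other ABC transporters, 5 had a probe with a symbol and 2 were bright enough to test: TAP2, which carries antigenic peptides into the endoplasmic reticulum, and ABCA4, a retinoid flippase. Neither passed in any of the 11 comparisons by limma, with 4 of these 22 tests at an unadjusted p under 0.05, against 17.2% of the tests over all units. ABCC2, ABCB11 and CFTR, which belong to liver and epithelia, were above background in 2 to 4 channels. Of the phase 1 enzymes, which oxidise or hydrolyse drugs, 13 of 42 could be tested. In the mean of weeks 3, 6 and 9, 1 was higher in meat (ADH5, which oxidises glutathione-bound formaldehyde, 0.39 ± 0.10) and 2 lower (CYP1B1, -0.19 ± 0.06, and CYB5R3, -0.13 ± 0.04), with a list median of -0.01 against 0.00 over all units. Week by week 0 of the 13 passed between the diets, with 8 of those 52 tests at an unadjusted p under 0.05, against 15.2% of the tests over all units. Of the phase 2 enzymes and uptake carriers, 9 of 41 were tested, and GSTP1, which conjugates glutathione to substrates, was lower in meat in the mean (-0.25 ± 0.08) and rose from week 0 to 9 on kibble (0.43 ± 0.12). SULT1A1, a phenol sulfotransferase, fell from week 0 to 9 on both diets, by 0.84 ± 0.19 on kibble and 0.70 ± 0.19 on meat. In all, 4 of the 99 tests of this list passed and 14 had an unadjusted p under 0.05, against 17.2% over all units. Among 3 regulators tested of 20 listed (HIF1A, PPARD and PPARG), PPARG was lower in meat at week 3 (-0.43 ± 0.11), week 6 (-0.39 ± 0.11) and in the mean (-0.38 ± 0.07). Of the 33 tests of regulators, 3 passed and 8 had an unadjusted p under 0.05. Of all units 14.9% were called in the mean, 6.07% at week 3 and 6.23% at week 6. From week 0 to 9 the share was 13.6% on kibble and 8.01% on meat. The xenobiotic receptor genes NR1I2 and NR1I3 were matched to no probe here and were not analysed, as only 1087 of the units tested carry a symbol.

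Among the genes whose log ratios were most like those of ABCB1 over the 30 arrays, of 1086 other named units, were VNN1, a pantetheinase (Pearson r 0.70), FHIT (0.69), FGFR1OP2 (0.68) and ADH5 (0.60). For ABCC1 they included PON2 (0.73) and TLR9, the receptor for unmethylated DNA (0.73). For ABCC4 they were TFF1, a stomach peptide (0.85), PRM2, a sperm protamine (0.84), and SOX9, a factor of cartilage and testis (0.83), all above background in 60 channels. ABCC5 went with the ribosomal protein genes RPL4 (0.67) and RPL7A (0.61) and with CTNNB1 (0.59), and CYP3A12 with PSEN2 (0.74), ADCY6 (0.71) and CENPS (0.65). The arrays share dogs, slides and dye, so these values only describe likeness. Between members the correlations ran from -0.41 (ABCB1 with ABCC5) to 0.11 (ABCB1 with ABCC4).

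Markers of the blood cells moved between the diets as well. In the mean of weeks 3, 6 and 9 ABCB1 passed and 14.9% of all units were called. There 4 of 5 monocyte, 6 of 6 platelet, 3 of 6 neutrophil and 5 of 8 cytotoxic and NK cell markers were lower in meat. So were 1 of 3 basophil and mast cell markers and 1 of 2 red cell markers. Of the T cell markers 1 of 2 was higher (CD28, 0.25 ± 0.05). At week 9, with 0.593% of all units called, 1 of 6 platelet, 1 of 6 neutrophil and 1 of 3 basophil and mast cell markers were lower in meat. None of the 5 monocyte, 8 cytotoxic and NK cell or 2 T cell markers passed there. Medians at week 9 were -0.60 (platelet), -0.50 (neutrophil), -0.34 (monocyte), -0.04 (basophil and mast cell), 0.06 (cytotoxic and NK cell) and 0.19 (T cell). At an unadjusted p under 0.05 were 5 of 6 platelet, 2 of 6 neutrophil, 2 of 5 monocyte and 1 of 3 basophil and mast cell markers. So were 0 of 8 cytotoxic and NK cell and 1 of 2 T cell markers, against 10.5% of all units. At week 3 CYP3A12 passed and 6.07% of all units were called. The markers lower in meat were 4 of 5 monocyte, 2 of 6 platelet, 3 of 6 neutrophil and 3 of 8 cytotoxic and NK cell markers. So were 1 of 3 basophil and mast cell and 1 of 2 red cell markers, and 0 of 2 T cell markers passed. Already at week 0, with 0.312% called, 1 of 6 neutrophil and 1 of 3 basophil and mast cell markers were lower. The platelet markers had a median of -0.61 at week 0, with 0 of 6 passing and 5 of 6 at an unadjusted p under 0.05 (8.89% of all units). The mean log2 level of the monocyte markers ran from 11.1 to 12.2 over meat channels and from 12.0 to 12.7 over kibble channels at week 9, and that of the cytotoxic markers from 9.08 to 10.5 and from 9.56 to 10.4. From week 0 to 9 on kibble ABCC1 passed and 13.6% of all units were called. There 4 of 6 platelet markers and 1 of 5 monocyte markers were higher, and 2 of 2 red cell markers and 1 of 6 neutrophil markers lower. From week 3 to 6 on meat, where ABCC5 passed and 2.24% of all units were called, 1 of 6 platelet markers was lower. Only 2 of 8 listed B cell markers could be tested, and they passed 0 of 22 tests over the 11 comparisons by limma. Of these tests 0 had an unadjusted p under 0.05, against 17.2% of the tests over all units. The part of these cell types in the results for the 5 genes was not tested.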

How the data were processed

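Total RNA (200 ng per sample, per the labels) was amplified, labelled and hybridised. Per the file headers, Agilent Feature Extraction 10.10.1.1 read the scans. The deposited scanner files give each spot's median intensity and local background, with other flags, such as well above background. The deposited matrix gives the authors' normalised log2 ratios, and the submitters' processing notes name limma. These correlated with the ratios computed here at 0.834 to 0.991 per array. The plan assumed mean signals; the files hold medians.

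Here normexp (offset 50) corrected the background and loess the ratios. Of all probes, 31691 were above background in at least 7 of 60 channels. The brightest probe of each gene or accession entered a two-sided linear model fit by limma (version 3.58.1; R version 4.3.3; tables loaded by data.table, version 1.17.8), whose terms were group and dye, leaving 23 residual degrees of freedom. Over all arrays 979 faulty spots were left out and 0 were saturated. Levels used Aquantile after loess and keep each gene's dye effect. The number of arrays limits the precision. Symbols came from RefSeq accessions, for 2175 probes.

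Genes were named as members, as the nearest units by correlation, and as passing list members. Some of the nearest units are not reported here. Members and lists were chosen with earlier results of these data known. Alternatives are in the closing section. Those chosen after seeing the data were a dye term per scan session and a fit without both arrays that stood apart. The fit was tested on simulated data.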

Additional observations from a re-analysis of the deposited data

Results flagged for a closer look

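In 12 of 84 groups of 4 to 8 values, a single value lay far from the others by Dixon's test, which chance alone gives in about 1 of 20 groups. The only array ratio among them was ABCC4 from week 3 to 6 on kibble, replicate 2, at -0.56. The other 11 were channel levels on the normalised log2 scale. On the array of kibble week 0 against kibble week 9, replicate 1, which had the fewest bright probes, these were ABCB1 at 6.51 (week 9), the second ABCB1 probe at 6.91 (week 0), ABCC4 at 8.72 (week 9) and CYP3A12 at 6.35 (week 0) and 6.40 (week 9). On meat week 9 against meat week 0, replicate 1, where nearly all probes were bright, they were ABCB1 at 7.50 (week 9), ABCC5 at 6.28 (week 0) and 6.27 (week 9) and CYP3A12 at 8.41 (week 9). The last ones were the second ABCB1 probe at 6.83 in meat week 6 (replicate 4 of the arrays against meat week 3) and ABCC4 at 7.86 in meat week 6 (replicate 2).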

How the results depend on the processing

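Of 55 results (5 members in 11 comparisons), 5 passed the test, and 0 changed direction past it under the 19 alternatives or without any 1 array. ABCB1 in the mean of weeks 3, 6 and 9 passed under all 17 alternatives that could be fitted and without any array (0.21 to 0.34). ABCB1 at week 9 lost its call with median centring (0.53, adjusted p 0.109) and with the arrays of the 2 groups alone (0.53, adjusted p 0.604). Without single arrays it ran from 0.45 to 0.55 and lost the call 3 times, without meat against kibble replicate 1 (adjusted p 0.0821) and without kibble against meat replicate 1 (0.0555) or 2 (0.120). At week 3 ABCB1 ran from 0.089 to 0.44 without single arrays. ABCC1 on kibble lost its call with the slide as a fixed block (-0.31), and ran from -0.42 to -0.26 without single arrays, losing it without replicates 2 and 4. CYP3A12 at week 3 fell short with Feature Extraction signals (0.87), median centring (0.59), no filter (0.62), the slide as a fixed block (0.51), no dye term (0.56), the replicate block (0.61), the arrays of the loop alone (0.62), those of the 2 groups alone (0.51) and a dye term per scan session (0.64), and ran from 0.26 to 0.78 without single arrays, losing the call for 11 of 30. ABCC5 on meat from week 3 to 6 fell short with no background correction (0.22), Feature Extraction signals (0.75), deposited ratios (0.22), median centring (0.15), scaling (0.18), the slide as a fixed block (0.19), no dye term (0.18), the arrays of the loop alone (0.22), those of the 2 groups alone (0.15) and a dye term per scan session (0.20), and ran from 0.17 to 0.22 without single arrays, losing the call for 7 of 30. The cause was not tested. Of the 50 other results, 4 were called by a setting: ABCB1 at week 3 and from week 6 over week 3 on meat, both without meat against kibble replicate 2 of week 3, CYP3A12 in the mean without kibble against meat replicate 1 of week 3, and ABCC1 on meat from week 3 to 6 with median centring (0.34). The replicate numbers did not pair the arrays (median correlation of same-numbered deviations -0.06), and the block changed no other call. Signal near background limits ABCC5 and the second ABCB1 probe.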
